A study of Mus musculus with 8 samples.

Results

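Transcripts of 36 DNA replication genes were followed in regenerating mouse liver with and without knockdown of Tbl1xr1. The members were taken from a given list of S phase and replication genes, by symbol and without reference to the values here, and they are 36 of the 55401 genes in each deposited table. All 36 had enough counts to be tested, among 13908 tested genes. The libraries came from livers of C57BL/6J mice whose hepatocytes had been infected with an adeno-associated virus 4 weeks before partial hepatectomy, the operation that takes away most of the liver mass. The virus carried either a control short hairpin RNA (shNC, 4 libraries) or a hairpin against Tbl1xr1 (shTbl1xr1, 4 libraries), and in both groups liver was collected on day 2 after surgery. Tbl1xr1 encodes a subunit of the NCoR and SMRT corepressor complexes. Both groups thus share the virus, a hairpin and the surgery, and a liver without surgery was not analysed here, so no induction of these genes by surgery could be measured. The virus was aimed at hepatocytes, while the RNA came from whole liver, so transcripts of the other liver cells are included. The labels do not say whether replicates are separate animals, so each p-value below reflects the scatter of these libraries, part of which may be technical.

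As background, DNA replication begins in G1, when ORC, CDC6 and CDT1 load the MCM2 to MCM7 ring onto origins, a step called licensing. In S phase, CDC45 and the GINS complex join the ring with the help of MCM10 to make the active helicase, and primase, polymerases, the PCNA clamp and its loader copy the DNA from deoxynucleotides made by ribonucleotide reductase and thymidylate synthase. The genes for these proteins are classic targets of the E2F transcription factors, which the RB proteins hold in check until a cell commits to divide. After partial hepatectomy in the mouse, normally quiescent hepatocytes enter the cell cycle largely in step, and the other liver cells follow later.

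Library totals were 25811763 to 27537235 expected counts in shNC and 26976205 and 36720879 in shTbl1xr1 3 and 4. They were only 10895508 and 10728583 in shTbl1xr1 1 and 2, which are called the shallow pair here. Mitochondrially encoded genes took 11.3% and 14.8% of the counts in the shallow pair, against 4.52% to 7.34% in the other 6 libraries. The targeted gene, Tbl1xr1, had 27.2, 35.9, 33.7 and 34.6 counts scaled to library size (CPM) in shNC 1 to 4. It had 2.38, 2.07, 9.24 and 15.9 CPM in shTbl1xr1 1 to 4, so the groups did not overlap and the shallow pair also had the least Tbl1xr1. The log2 difference was -2.37 (exact permutation test over 70 arrangements, two-sided p = 0.0286, the smallest that 4 against 4 libraries allow). In edgeR's fit across all genes its log2 fold change was -2.07 (SE 0.54, adjusted p = 0.290), which did not pass. The log2 fold change was -1.38 without the shallow pair and -3.88 in that pair alone. Tbl1xr1 is long, with a deposited length of 5015 bases averaged over shNC, and longer genes tended to be lower in the shallow pair, as given below. The part of length in its values was not tested. For each role group and each member with values in every library, the log2 fold change without the shallow pair (shTbl1xr1 3 and 4 against all shNC) is given as well, since depth, mitochondrial share and remaining Tbl1xr1 move together in these libraries and cannot be told apart.

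The promoters of the members carry the letters that E2F proteins are known to bind more often than promoters at large. In windows running from 250 bases before to 50 bases after the RefSeq start on GRCm38.p6, TTTCCCGC, TTTCGCGC, TTTGCCGC or TTTGGCGC was searched on both strands, and 14 of the 30 members with a window held at least 1 match (46.7%). Over all 27025 genes with a window the share was 2.61%, and over the 10394 tested genes with a window it was 4.59%. Among 26 mitosis genes with a window 1 had a match (3.85%). The CCAAT box, which NF-Y proteins bind, was in 20 of 30 member genes (66.7%) against 41.1% of all genes and 20 of 26 mitosis genes (76.9%). The cell cycle homology element, searched as TTTGAA or TTTAAA on both strands, was in 8 of 30 members (26.7%), 30.6% of all genes and 23 of 26 mitosis genes (88.5%). A match of letters is not evidence of binding, and no binding was measured here. Promoter windows were not found for Mcm4, Gins1, Gins2, Gins4, Pole and Tipin. A RefSeq start can also differ from the start in the GENCODE annotation. The windows of E2f1 and Cdc6, for example, lie inside the gene as GENCODE gives it, so the bases before that start were not searched. E2f1 counts as a member without a match on such a window.

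Of the 20 E2F matches, 1 overlapped a CCAAT box and none overlapped a cell cycle homology element, and 2 pairs overlapped each other. The promoters printed here were picked after the values were seen. They are those of Mcm6 and Mcm5, which hold the overlapping pairs, of Gins3, the member whose groups did not overlap, and of Cdc6 and Dtl, in each of which 1 library stood apart from its group. Each run holds 280 bases 5′ to 3′ on the gene's strand, of which the last 30 begin at the RefSeq start, and capitals mark the E2F matches, with overlapping matches joined.
Mcm6, chr1:128359676-128359955, minus strand: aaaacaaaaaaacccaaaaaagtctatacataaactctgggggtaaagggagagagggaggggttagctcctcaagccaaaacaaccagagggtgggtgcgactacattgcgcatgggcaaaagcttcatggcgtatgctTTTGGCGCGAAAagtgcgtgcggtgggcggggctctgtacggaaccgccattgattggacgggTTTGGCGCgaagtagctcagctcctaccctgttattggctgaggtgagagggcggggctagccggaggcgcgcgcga
Mcm5, chr8:75109259-75109538, plus strand: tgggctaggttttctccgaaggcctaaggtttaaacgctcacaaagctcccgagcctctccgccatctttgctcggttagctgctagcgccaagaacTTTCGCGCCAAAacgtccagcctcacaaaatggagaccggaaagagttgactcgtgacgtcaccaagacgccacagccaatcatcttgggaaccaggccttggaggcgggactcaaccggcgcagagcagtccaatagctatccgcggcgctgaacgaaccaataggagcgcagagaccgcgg
Gins3, chr8:95633309-95633588, plus strand: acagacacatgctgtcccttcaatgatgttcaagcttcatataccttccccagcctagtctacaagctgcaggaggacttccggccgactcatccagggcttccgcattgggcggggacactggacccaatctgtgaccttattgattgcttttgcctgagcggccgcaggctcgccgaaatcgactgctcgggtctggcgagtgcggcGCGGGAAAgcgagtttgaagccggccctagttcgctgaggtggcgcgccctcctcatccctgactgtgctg
Cdc6, chr11:98907901-98908180, plus strand: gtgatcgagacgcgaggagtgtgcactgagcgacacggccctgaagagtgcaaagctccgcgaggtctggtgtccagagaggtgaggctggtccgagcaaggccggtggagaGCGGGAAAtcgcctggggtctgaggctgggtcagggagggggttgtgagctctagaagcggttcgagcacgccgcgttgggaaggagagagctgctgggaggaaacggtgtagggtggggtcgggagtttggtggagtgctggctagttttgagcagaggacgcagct
Dtl, chr1:191575515-191575794, minus strand: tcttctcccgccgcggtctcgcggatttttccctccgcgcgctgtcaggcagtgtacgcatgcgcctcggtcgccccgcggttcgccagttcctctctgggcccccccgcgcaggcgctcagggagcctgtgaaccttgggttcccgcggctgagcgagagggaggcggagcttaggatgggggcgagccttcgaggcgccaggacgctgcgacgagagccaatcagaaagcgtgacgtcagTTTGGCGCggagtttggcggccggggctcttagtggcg
Counting the start base as 0, the matches began at -110, -106 and -47 in Mcm6, at -153 and -149 in Mcm5, at -41 in Gins3, at -138 in Cdc6 and at -8 in Dtl. Members with a match had a median log2 fold change of -0.29 between the groups (14 genes), and those with a window and no match had -0.02 (16 genes). The former were also longer, with a median transcript length of 2888 against 1843 bases, and without the shallow pair the medians were -0.08 and -0.05. The part of length in this difference was not tested.

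Knockdown of Tbl1xr1 went with no change of any single replication gene that passed the test. In the comparison of 4 shTbl1xr1 with 4 shNC libraries, 0 of the 36 members had an adjusted p under 0.05 in edgeR's quasi-likelihood test, where 0.0503% of all tested genes did (7 of 13908, 6 higher and 1 lower, or 3 higher and 1 lower when scaled by library size alone). DESeq2 and limma-voom also called 0 members, with 2.12% and 0.036% of tested genes. At an unadjusted p under 0.05 there were 2 members, Gins3 and Ung, both lower, which is 5.56% of the members against 11.6% of all tested genes (3.72% lower). Every shTbl1xr1 library lay on the same side of all shNC libraries for 1 member, Gins3, and for 7.25% of tested genes (3.37% lower). With both directions pooled these shares were below the background. For lower values alone they were near it. They were 5.56% of members (2 of 36) against 3.72% at an unadjusted p under 0.05, and 2.78% (1 of 36) against 3.37% for groups without overlap. In data simulated with the sizes and scatter of these libraries, edgeR recovered 0% of genes changed 2-fold. The 0 calls therefore do not show that the members were unchanged.

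The members leaned to lower values without clearing their own error. The log2 fold change was negative for 24 of 36 members (66.7%, against 49.4% of tested genes), with a median of -0.15 against 0.01 for all tested genes. Scaling by library size alone moved both medians down, to -0.44 and -0.27, so the members remained below the rest by a like amount. The median rested in part on single libraries, since it was -0.37 without shTbl1xr1 4, -0.06 without shTbl1xr1 3 and -0.09 without shNC 4. The folds ran from 0.67 for Gins3 to 1.49 for Mcm10, so all 36 estimates lay within 1.5-fold. Their standard errors ran from 0.14 to 0.46 on the log2 scale, with a median of 0.24, and the 95% interval included 0 for 34 members. The outermost bounds of these intervals were -1.40 and 1.61, so changes of more than 2-fold remain within the interval for some genes. The adjusted p-values ran from 0.405 to 0.959.

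**Figure D1:**
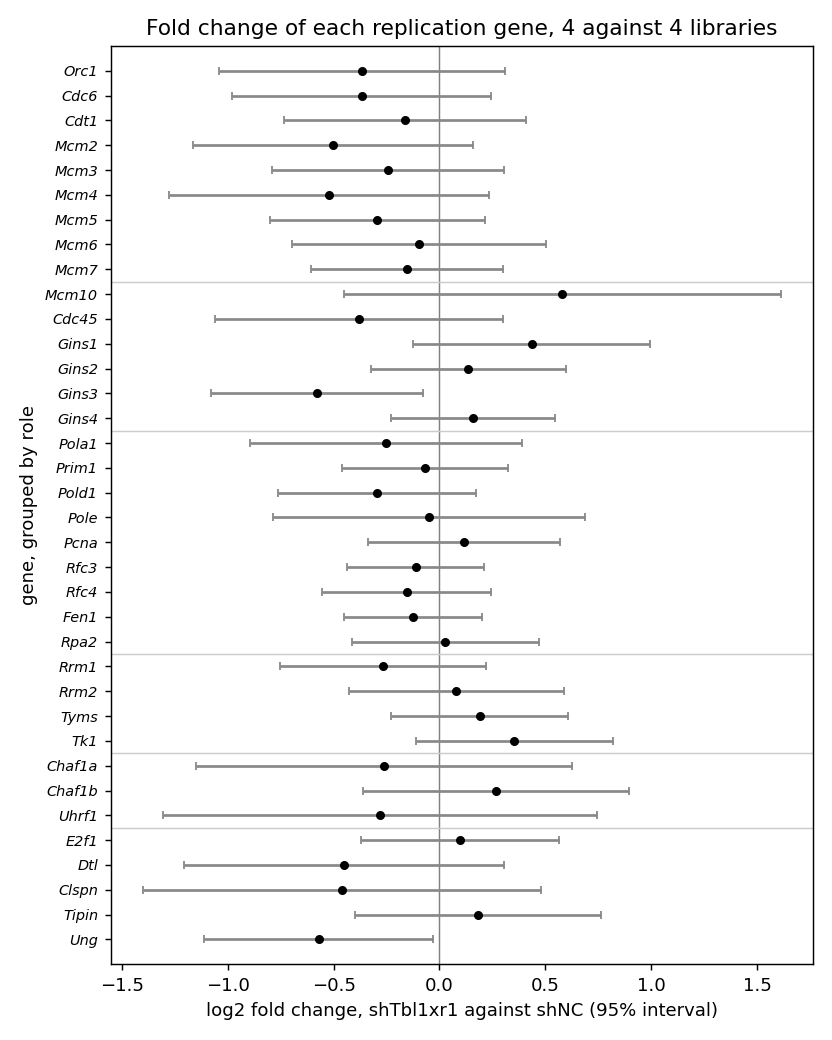
Log2 fold change of shTbl1xr1 against shNC for each of the 36 replication genes, grouped by role from licensing at the top to regulation at the bottom, with 95% intervals from the fit of 4 against 4 libraries. The 9 licensing genes all lie left of 0, and the intervals of Gins3 and Ung alone leave out 0.

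The licensing genes were the most uniform in sign: all 9 had a negative log2 fold change, with a median of -0.29, and 0 of 9 passed. Without the shallow pair 8 of 9 were negative and the median was -0.09, against -0.51 in the shallow pair alone. All 9 were also over 2000 bases in mean shNC length, from 2175 for Cdt1 to 3559 for Mcm4. Of the 22 members of that length 20 were negative with all libraries, and of the 14 shorter ones 4 were. The part of length in the shared sign was not tested. MCM2 and MCM4 are subunits of the ring that is loaded on origins, and their genes had the lowest folds of the group. Mcm2 (chromosome 6, 88883474 to 88898780, minus strand) had 33.8, 34.8, 52.8 and 52.3 CPM in shNC 1 to 4. It had 23.8, 20.3, 27.8 and 49.9 CPM in shTbl1xr1 1 to 4. The first 3 of these lie below every shNC library, and shTbl1xr1 4 lies within the shNC range. Its log2 fold change was -0.50 (SE 0.30, edgeR adjusted p = 0.487), and -0.16 without the shallow pair. Mcm4 (chromosome 16, 15623897 to 15637400, minus strand) had 28.8, 26.6, 36.6 and 36.3 CPM in shNC. In shTbl1xr1 it had 15.0, 13.0, 19.5 and 40.8 CPM, so shTbl1xr1 1 to 3 were below and shTbl1xr1 4 above all shNC libraries. Its log2 fold change was -0.52 (SE 0.34, edgeR adjusted p = 0.516), and -0.09 without the shallow pair.

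The rest of the ring had log2 fold changes nearer to 0: Mcm3 -0.24, Mcm5 -0.29, Mcm6 -0.10 and Mcm7 -0.15. Of the loading factors, Orc1, the largest ORC subunit, and Cdc6, the ATPase that recruits the ring, each had -0.37, and Cdt1, their partner, had -0.16. Cdc6 had 12.7, 10.5, 10.3 and 10.7 CPM in shNC, which is a narrow range. In shTbl1xr1 it had 6.63, 7.04, 6.05 and 14.0 CPM, so 3 libraries were below all shNC libraries and shTbl1xr1 4 was above them, and without the shallow pair the log2 fold change was -0.14. Orc1 was scarce, at 1.63 to 2.19 CPM in shNC, and its lowest library had 9 counts.

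The helicase activation genes did not share a sign, with medians of 0.15 over all libraries and -0.06 without the shallow pair. Gins1 and Mcm10 had positive values, while Gins3 and Cdc45 had negative ones, although GINS1 to GINS4 sit in 1 complex with equal copies of each. These signs also went with length. The 4 positive genes had mean shNC lengths of 1078 (Gins1) to 1785 bases (Mcm10), and Cdc45 and Gins3 had 2082 and 2484 bases. The part of length in these signs was not tested. Gins3 (chromosome 8, 95633453 to 95645060, plus strand) had 3.62, 4.12, 2.75 and 3.51 CPM in shNC. It had 2.25, 2.07, 2.61 and 2.36 CPM in shTbl1xr1, below every shNC library, with a gap of shNC 3 to shTbl1xr1 3 that was small next to the scatter. The log2 fold change was -0.58 (SE 0.22, unadjusted p = 0.0274, edgeR adjusted p = 0.405), and it was -0.50 without the shallow pair. Gins3 was scarce, with 15 counts in its lowest library. Gins1 (chromosome 2, 150905400 to 150931280, plus strand) had 6.89, 8.26, 7.47 and 11.4 CPM in shNC and 15.4, 13.5, 8.89 and 8.78 CPM in shTbl1xr1. The shallow pair lay above all shNC libraries and the other pair within their range. Its log2 fold change was 0.44 (SE 0.25, edgeR adjusted p = 0.480) and 0.05 without the shallow pair.

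Mcm10, whose protein helps the helicase to start, was the most variable of these genes between libraries. Mcm10 (chromosome 2, 4989714 to 5012791, minus strand) had 24.3, 19.1, 35.5 and 31.7 CPM in shNC and 33.8, 63.7, 10.8 and 57.6 CPM in shTbl1xr1. The lowest and the highest of all 8 libraries were both shTbl1xr1, and the log2 fold change of 0.58 had an SE of 0.46 (edgeR adjusted p = 0.587) and was 0.31 without the shallow pair. Cdc45, the helicase cofactor, had -0.38, and Gins2 and Gins4 had 0.14 and 0.16. Scaled by library size alone, Gins2 and Gins4 had -0.20 and -0.19, where the median of all tested genes was -0.27. For Gins2, 67.3% of the annotated exon bases overlap Gse1 on the opposite strand, and the strand setting of the counting is not given in the sources used here, so its counts may hold reads of Gse1.

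The DNA synthesis genes lay close to 0, with a median log2 fold change of -0.11, 7 of 9 negative and 0 of 9 passing the test, and the median without the shallow pair was -0.14. PCNA is the sliding clamp of the replicative polymerases and a common stain for cells in S phase. Pcna (chromosome 2, 132249162 to 132253314, minus strand) had 87.8, 70.9, 104 and 118 CPM in shNC. It had 118, 110, 78.5 and 107 CPM in shTbl1xr1. These ranges overlap almost fully, and the log2 fold change was 0.12 (SE 0.20, edgeR adjusted p = 0.813, 95% interval -0.34 to 0.57), or -0.04 without the shallow pair. Pold1 (chromosome 7, 44532746 to 44548849, minus strand), the catalytic subunit of the lagging strand polymerase, had 11.4, 13.0, 14.7 and 13.4 CPM in shNC and 8.01, 8.56, 11.2 and 14.4 CPM in shTbl1xr1. Its shTbl1xr1 1 to 3 lay below all shNC libraries, and its log2 fold change was -0.29 (SE 0.21, edgeR adjusted p = 0.545), or -0.03 without the shallow pair.

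Pole, the leading strand polymerase, had -0.05, with its highest value of 27.2 CPM in shTbl1xr1 4 and its lowest of 9.89 CPM in shTbl1xr1 1. Pola1 and Prim1, of the primer-making complex, had -0.25 and -0.07. Rfc3 and Rfc4, of the clamp loader, had -0.11 and -0.15. Fen1, the flap nuclease that trims Okazaki fragments, had -0.12, and Rpa2, of the complex that coats single strands, had 0.03. For Fen1, 78.8% of the exon bases overlap Gm10143 on the opposite strand, and for Rfc4 12.7% overlap Eif4a2.

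Of the nucleotide supply genes, 3 of 4 were positive with a median of 0.14, or 0.01 without the shallow pair, and 0 of 4 passed. Scaled by library size alone, Rrm2 and Tyms had -0.20 and -0.16, where the median of all tested genes was -0.27. Tk1 (chromosome 11, 117815526 to 117826092, minus strand), the thymidine salvage kinase, had 39.9, 38.4, 29.5 and 48.8 CPM in shNC and 65.1, 52.3, 39.9 and 43.4 CPM in shTbl1xr1. Only the shallow pair exceeded the shNC range, and the log2 fold change was 0.35 (SE 0.21, edgeR adjusted p = 0.487), or 0.09 without that pair. Rrm2 (chromosome 12, 24708241 to 24714146, plus strand), the S phase subunit of ribonucleotide reductase, had 76.6, 80.1, 74.0 and 106 CPM in shNC and 102, 68.4, 67.1 and 118 CPM in shTbl1xr1. Its groups had nearly the same mean, with a log2 fold change of 0.08 (SE 0.23, edgeR adjusted p = 0.893), or 0.14 without the shallow pair. Rrm1, the large subunit of the same enzyme, had -0.27, and Tyms, thymidylate synthase, had 0.19.

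Of the chromatin genes, Chaf1a and Chaf1b encode subunits of the histone chaperone CAF-1 and Uhrf1 brings maintenance DNA methylation to new strands. Their median was -0.26 over all libraries and 0.19 without the shallow pair. Chaf1b (chromosome 16, 93883901 to 93906115, plus strand) had 8.72, 8.98, 10.6 and 15.9 CPM in shNC and 16.3, 12.7, 7.95 and 16.4 CPM in shTbl1xr1, with a log2 fold change of 0.27 (SE 0.28, edgeR adjusted p = 0.685), or 0.14 without the shallow pair. Its partner Chaf1a had -0.26, from 4.56 CPM in shTbl1xr1 2 to 24.7 CPM in shTbl1xr1 4, and 52.5% of its exon bases overlap Ubxn6 on the opposite strand. Uhrf1 had 26.8, 29.5, 29.5 and 43.4 CPM in shNC and 15.6, 10.8, 20.6 and 57.8 CPM in shTbl1xr1. Here too shTbl1xr1 1 to 3 were below and shTbl1xr1 4 above all shNC libraries, and the log2 fold change of -0.28 had an SE of 0.46 and was 0.28 without the shallow pair.

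In the group of regulation, checkpoint and repair genes the median log2 fold change was -0.45 over 5 genes, with 3 negative and 0 passing. It was -0.07 without the shallow pair and -0.68 in that pair alone. Ung (chromosome 5, 114130386 to 114139323, plus strand), the glycosylase that removes uracil from DNA, had 16.9, 16.5, 25.3 and 19.99 CPM in shNC and 11.1, 13.5, 9.40 and 18.7 CPM in shTbl1xr1. Again shTbl1xr1 1 to 3 were below all shNC libraries and shTbl1xr1 4 was within their range. The log2 fold change was -0.57 (SE 0.24, unadjusted p = 0.0411, edgeR adjusted p = 0.418), or -0.48 without the shallow pair. E2f1 (chromosome 2, 154559407 to 154569892, minus strand), an E2F factor that activates transcription, had 15.5, 13.2, 21.4 and 20.8 CPM in shNC and 19.0, 18.1, 15.2 and 23.6 CPM in shTbl1xr1. Its groups overlapped, with a log2 fold change of 0.10 (SE 0.21, edgeR adjusted p = 0.851), or 0.13 without the shallow pair. Dtl, the substrate receptor for destruction of CDT1 in S phase, had -0.45, Clspn, the checkpoint mediator, had -0.46, and Tipin, of the fork protection complex, had 0.18. Without the shallow pair Dtl had -0.07, Clspn 0.02 and Tipin -0.29.

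**Figure D2:**
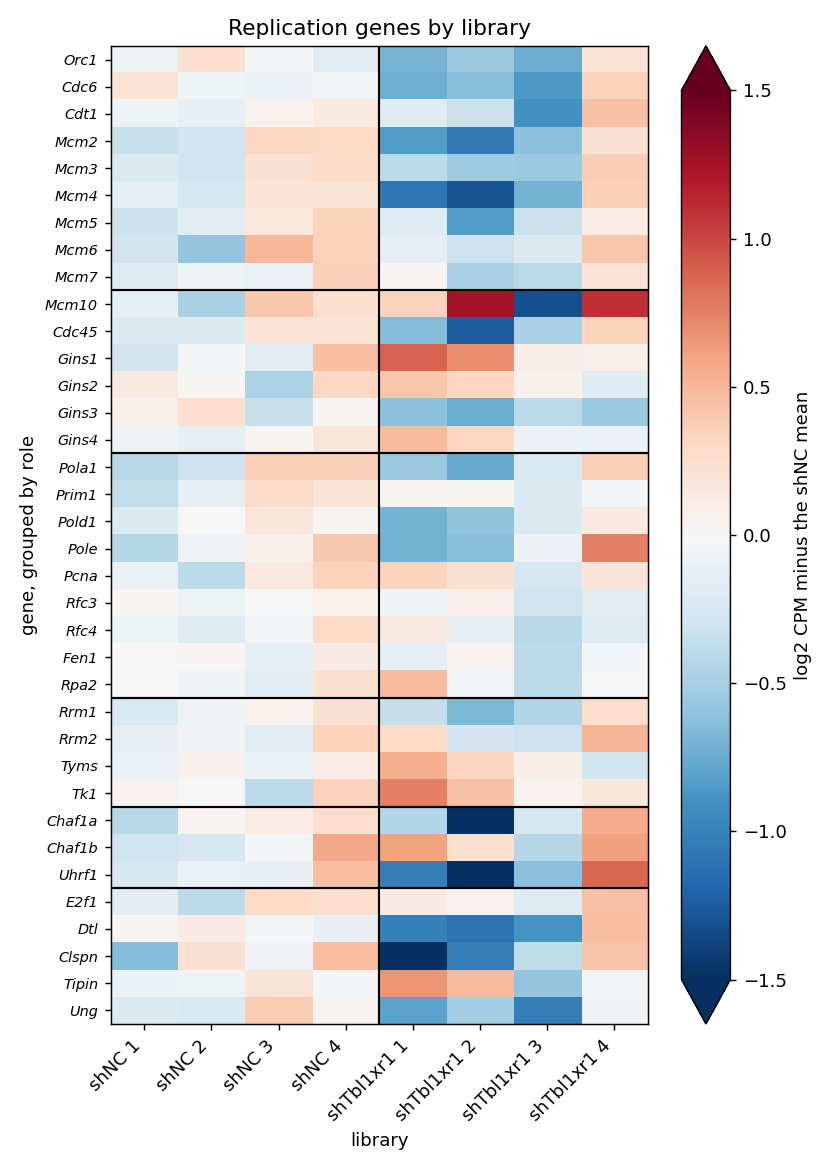
Level of each of the 36 replication genes in each of the 8 libraries, as log2 CPM minus the shNC mean of that gene, with colours ending at 1.5 in either direction and genes grouped by role. The column of shTbl1xr1 3 is mostly blue and that of shTbl1xr1 4 mostly red, and shTbl1xr1 1 and 2 hold strong colours of both kinds.

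The shTbl1xr1 libraries differed more from each other than the groups did. The median of the members' log2 deviations from the shNC mean was -0.15, -0.08, 0.04 and 0.25 in shNC 1 to 4. It was -0.16, -0.40, -0.39 and 0.22 in shTbl1xr1 1 to 4, so shTbl1xr1 4 sat beside shNC 4 at the top and shTbl1xr1 2 and 3 sat well below every shNC library, with shTbl1xr1 1 level with shNC 1. In shTbl1xr1 3, 23 members were below the whole shNC range and 0 above it. In shTbl1xr1 4, 14 were above that range and 4 below it, and 31 of 36 members were higher in shTbl1xr1 4 than in shTbl1xr1 3. Those are the deeper libraries of the group. In the shallow pair, members left the shNC range in both directions, 9 above and 17 below in shTbl1xr1 1 and 8 above and 20 below in shTbl1xr1 2. The share of all tested genes outside the shNC range was not counted, so these counts have no background beside them. Some genes leave a range of only 4 libraries without any effect. Over all tested genes the median deviation was -0.055, -0.072, -0.010 and 0.003 in shTbl1xr1 1 to 4. The shNC libraries had an order of their own, with shNC 4 the highest of the 4 for 23 members.

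The mitosis genes, the next wave of the cell cycle, followed another order over the libraries. Of the 30 mitosis genes, 25 had a negative log2 fold change (median -0.36), and 0 passed. Their median deviation was -0.01, 0.44, -0.52 and 0.18 in shNC 1 to 4 and -0.15, -0.32, -0.18 and -0.64 in shTbl1xr1 1 to 4. In shTbl1xr1 4, the library with the most members above the shNC range, 16 of 30 mitosis genes were below that range and 0 above. The share of all tested genes below it was not counted here either. Mki67, the Ki-67 proliferation antigen, had 59.7, 99.8, 51.5 and 93.8 CPM in shNC and 57.1, 54.4, 54.7 and 55.9 CPM in shTbl1xr1, with a log2 fold change of -0.46 (edgeR adjusted p = 0.434). Without the shallow pair the mitosis median was -0.41, with 29 of 30 negative, and that of the replication genes was -0.08. The difference between the lists was not tested.

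**Figure D3:**
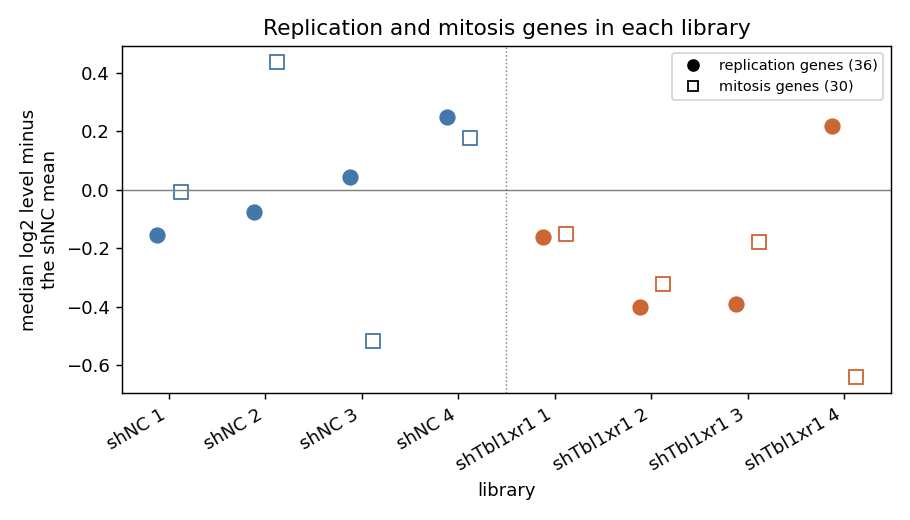
Median log2 level, as the deviation from the shNC mean, of the 36 replication genes (filled circles) and the 30 mitosis genes (open squares) in each library, with shNC in blue and shTbl1xr1 in orange. In shTbl1xr1 4 the replication median is 0.22 and the mitosis median -0.64, and in shNC 3 they are 0.04 and -0.52.

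Against the shNC libraries, the shallow pair alone gave called genes in both directions. In that fit of 2 against 4 libraries, 16 of 36 members passed (44.4%), where 42.5% of all tested genes did (21.5% higher and 21.1% lower), so the pooled share of members was near the background. By direction, 13.9% of members were higher and 30.6% lower. Tk1, Tyms, Gins1, Gins4 and Tipin rose, by log2 fold changes of 0.58, 0.43, 0.76, 0.38 and 0.57. The 11 that fell were Cdc45, Uhrf1, Mcm2, Pole, Cdc6, Mcm4, Ung, Rrm1, Dtl, Pold1 and Clspn, with values from -0.52 for Rrm1 to -1.41 for Clspn. Their edgeR adjusted p-values ran from 0.0012 for Mcm4 to 0.048 for Gins4. In the fit of shTbl1xr1 3 and 4 against shNC, 0 members passed, as did 0.0478% of tested genes. The median log2 fold change there was -0.08, and 12 members had the opposite sign from the fit of all libraries. Whether the pairs differ from each other was not tested.

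The sign of a member in the shallow pair went with the length of its transcript. Lengths are those deposited per gene and library, which weight the isoforms by their estimated abundance, averaged over shNC. Of the 14 members under 2000 bases, 1 had a negative log2 fold change in the shallow pair, and of the 22 longer ones 20 did, with medians of 0.36 and -0.68. Short genes that were higher include Tipin (788 bases), Tyms (1031 bases) and Gins1 (1078 bases), and long genes that were lower include Clspn (3712 bases), Mcm4 (3559 bases) and Dtl (4189 bases). Across the 36 members, Spearman's rho between length and log2 fold change was -0.85 in the shallow pair, -0.65 with all libraries and 0.32 in shTbl1xr1 3 and 4. All tested genes showed the same directions, with -0.52, -0.38 and 0.24, and all these points come from the same libraries. The library nearest to the shallow pair among the controls was shNC 1, with a rho of -0.40 over members, while shTbl1xr1 4 had 0.61.

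**Figure D4:**
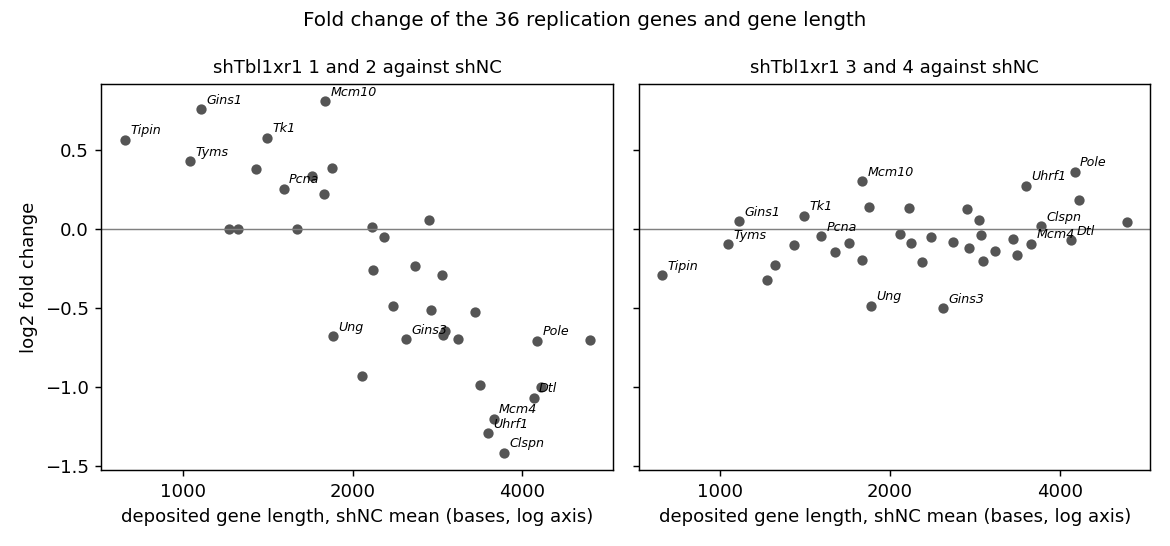
Log2 fold change of the 36 replication genes against shNC by deposited gene length (log axis), for shTbl1xr1 1 and 2 on the left and for shTbl1xr1 3 and 4 on the right, each point 1 gene. On the left genes under 2000 bases lie mostly above 0 and longer ones mostly below (medians 0.36 and -0.68), and on the right the medians are -0.10 and -0.05.

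The isoforms assigned to some members were also shorter in the shallow pair, and those assigned to others were longer. The length of Pole was 2965, 4112, 5910 and 4014 bases in shNC, 1423 and 1547 bases in shTbl1xr1 1 and 2, and 5382 and 4602 bases in shTbl1xr1 3 and 4. That of Pold1 was 2719 to 3091 bases in shNC and 3026 and 3049 bases in shTbl1xr1 3 and 4, but 1512 and 1296 bases in the shallow pair. Rrm1 had 2843 to 3716 bases in shNC and 1842 and 1603 bases in the shallow pair, and Mcm3 had 1829 to 2771 bases and then 1055 and 979 bases. Lengths of Pcna and E2f1 stayed close to the same value in all libraries. In shTbl1xr1 1 and 2, 5 and 6 members had a length under 80% of their shNC mean, and 0 did in shTbl1xr1 3 and 4. In shNC 1 to 4 there were 2, 0, 1 and 0. Over all tested genes the shares under 80% were 11.6% and 11.7% in the shallow pair, 2.44% and 1.74% in shTbl1xr1 3 and 4, and 1.61% to 2.72% in shNC. These lengths are estimates, and their part in the replication results was not tested directly. When a length trend was fitted to each library and removed, an alternative added after the data were seen, 0 members passed (background 0.187%), and the median was -0.12 against 0.07 for all genes.

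**Figure D5:**
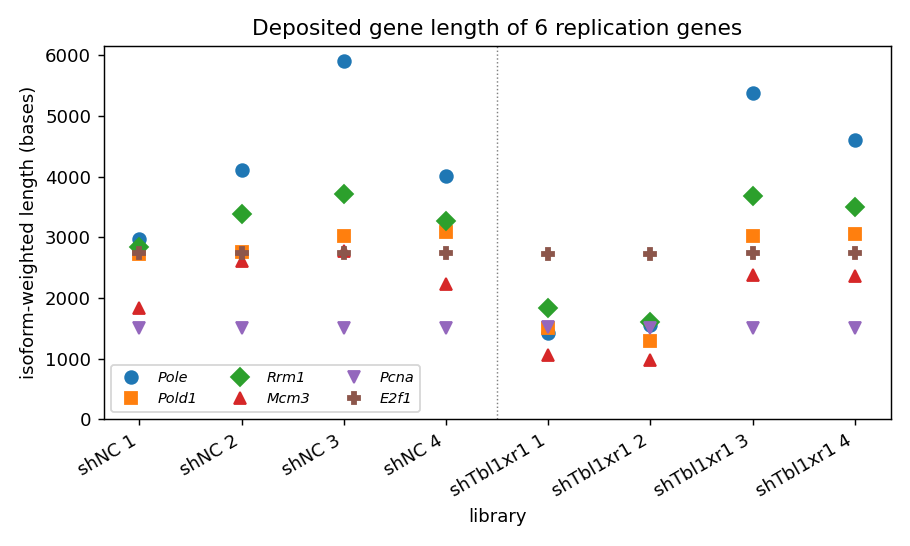
Isoform-weighted length, in bases, that the deposited tables give for Pole, Pold1, Rrm1, Mcm3, Pcna and E2f1 in each of the 8 libraries. Pole, Pold1, Rrm1 and Mcm3 are shortest in shTbl1xr1 1 and 2, where Pole has 1423 and 1547 bases, and Pcna and E2f1 stay level.

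Per length, the members spanned a wide range of expression. TPM is a transcript measure that divides counts by length and then by the library's sum of these length-scaled counts. In TPM, Pcna was highest in shNC at 96.5 ± 24.4 (SD, n = 4). It was followed by Rrm2 at 56.3 ± 11.1, Tyms at 54.8 ± 7.61, Tk1 at 42.9 ± 8.92 and Mcm6 at 38.4 ± 15.6 (SD, n = 4 each). Rrm2 and Tyms did not differ beyond their spread, nor did Tk1 and Mcm6. At the other end were Pola1 at 2.79 ± 0.89, Clspn at 2.59 ± 1.28, Gins3 at 2.00 ± 0.35 and Orc1 at 0.887 ± 0.115 TPM (SD, n = 4 each), of which Pola1 and Clspn overlapped. The summed TPM of the members was 618, 672, 821 and 928 in shNC and 444, 347, 630 and 893 in shTbl1xr1. Their summed CPM, scaled by edgeR's TMM factors and not divided by length, was 934, 933, 1109 and 1265 in shNC and 1041, 905, 816 and 1275 in shTbl1xr1. The TPM sums of the shallow pair lie below every other library, while their TMM-scaled CPM sums do not. The TMM factors were 0.734 and 0.675 in shTbl1xr1 1 and 2 and 1.08 to 1.16 in the other libraries. TPM hold no such factor, so the measures differ in scaling as well as in length. The part of each was not tested.

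The other genes of the replication pathway gave a like picture. Of 90 further genes in 5 lists, all of them tested, 0 passed in either direction, 55 had a negative log2 fold change, and the median was -0.09. The median was -0.29 over 16 other licensing and firing genes, -0.02 over 23 other synthesis genes, 0.16 over 18 other nucleotide supply genes, -0.17 over 12 other chromatin genes and -0.20 over 21 E2F, RB and S phase kinase genes. Without the shallow pair these 5 medians lay between -0.11 and 0.0023. Cdc7, the kinase that fires licensed origins, had 2.26, 2.84, 2.99 and 2.32 CPM in shNC and 0.751, 0.690, 1.32 and 2.11 CPM in shTbl1xr1, below every shNC library. Its log2 fold change was -0.99 (SE 0.36, edgeR adjusted p = 0.394), with -0.60 without the shallow pair and -1.85 in that pair alone. At these low levels counting error is large in the shallow pair. Gmnn, the inhibitor of CDT1, had 0.33.

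Paics, a purine synthesis enzyme, had 181, 129, 188 and 177 CPM in shNC and 290, 258, 219 and 287 CPM in shTbl1xr1, above every shNC library both with and without the shallow pair. Its log2 fold change was 0.64 (SE 0.19, edgeR adjusted p = 0.326), and 0.58 without that pair. Ccne2, the cyclin that starts S phase with CDK2, had -0.85 (edgeR adjusted p = 0.426), and E2f2, an activator E2F, had -0.58 (edgeR adjusted p = 0.392). Without the shallow pair Ccne2 had -0.40 and E2f2 -0.49, against -1.66 and -0.70 in that pair alone. E2f8, an E2F that represses, had 0.47, with 39.0 CPM in shTbl1xr1 4 and 11.02 to 16.4 CPM in every other library. Rnaseh2c and Dctpp1 had 0.71 and 0.82 with all libraries, and -0.15 and -0.04 without the shallow pair.

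Markers of macrophages, endothelial cells and stellate cells were lower in the shallow pair than in shNC. All 10 macrophage markers had a negative log2 fold change (median -0.56, and -1.40 in the shallow pair alone), and their summed level was 551 to 896 CPM in shNC and 258 to 746 CPM in shTbl1xr1. All 10 endothelial markers were negative as well (median -0.36, and -0.89 in the shallow pair), with sums of 305 to 364 and 178 to 368 CPM. For 10 stellate cell markers, 8 were negative (median -0.14, and -1.42 in the shallow pair), with sums of 265 to 497 and 125 to 596 CPM. In shTbl1xr1 3 and 4 the medians of these lists were -0.13, 0.06 and 0.03. With all libraries none of these markers passed edgeR's test, and at an unadjusted p under 0.05 there was 1, a stellate cell marker. In such bulk samples, fewer cells of a type and less RNA per cell cannot be told apart. In the shallow pair the median over all tested genes was also -0.36 for those of 2000 bases or more and 0.46 for shorter ones. The part of length and depth in the marker values was not tested.

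Hepatocyte markers, which define the labelled tissue, had a median of 0.06 over 9 tested genes, and their sum was 66244 to 82595 CPM in shNC and 60767 to 100330 CPM in shTbl1xr1. Bile duct markers had a median of 0.72 over 9 genes (0.29 in the shallow pair and 0.97 in shTbl1xr1 3 and 4), with sums of 42.8 to 129 and 54.7 to 252 CPM, the last in shTbl1xr1 3, the library with the lowest summed CPM of replication genes. Red cell precursors had -0.11 over 7 genes, with sums of 360 to 922 and 335 to 654 CPM. Lymphocyte and neutrophil markers were scarce, with 3 and 4 of 10 tested and sums of 3.82 to 5.32 and 4.09 to 10.4 CPM in shNC and 2.38 to 3.84 and 2.63 to 17.9 CPM in shTbl1xr1. Of their defining genes, Ly6g and Camp were at 0 in 6 of 8 libraries each, and Cd3e and Cd8a in 2 each. The part of these cell types in the replication results was not tested.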

How the data were processed

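Total RNA of 8 liver samples, 4 shNC and 4 shTbl1xr1, was extracted with TRIzol and sequenced from MGIEasy libraries, per the labels' protocols. The deposited tables give each gene's expected count, which is the authors' estimate and need not be whole, its TPM, and its length and effective length in bases, per the file headers. Per the submitters' processing notes, RSEM and STAR were used, with the build mm10 and DESeq2 1.30.1. The strand setting, annotation and options were not given in the sources used here. Because RSEM splits reads shared by similar genes among them, such genes are less certain.

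Expected counts were rounded to whole numbers. filterByExpr kept 13908 of 55401 genes, and edgeR 4.0.16 (R 4.3.3) compared the groups with TMM scaling and a robust quasi-likelihood F test without covariates, adjusted by Benjamini-Hochberg over all tested genes at 0.05. Printed CPM are TMM-normalised, and log2 levels used a prior count of 2. Libraries held 10728583 to 36720879 counts, so low genes carry most counting error in shTbl1xr1 1 and 2. Deposited TPM and lengths were described and not tested. Tbl1xr1 was compared on log2(CPM + 1) by an exact permutation test. limma 3.58.1 (voom) and DESeq2 1.42.0 were alternatives among 19 planned and 1 added, and the code was tested on simulated data. There, with 200 of 13908 genes changed, edgeR recovered 0% at 1.5-fold, 0% at 2-fold and 83.5% at 4-fold. False calls were 2, 0 and 5.

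Symbols and positions are from GENCODE M21 on GRCm38, the assembly of mm10, and 55141 of 55401 identifiers matched. Promoters are from RefSeq (GRCm38.p6). The members were fixed by the given list. The other lists and the tests were chosen with earlier results of these data known. Per-library values are given for 12 members, namely the member with the smallest p in each of 6 roles, any with groups that did not overlap, any called, the 3 lowest and 3 highest folds, and Pcna, Mcm2, E2f1, Rrm2 and Tk1. Values of other members and of the genes of other lists, given where a library stood apart, were chosen after they were seen.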

Additional observations from a re-analysis of the deposited data

Results flagged for a closer look

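In 72 groups of 4 libraries (36 members in 2 groups), the highest or lowest library was compared with its neighbours by Dixon's ratio on log2 levels. The 95% level was used, which chance passes in about 1 of 20 groups, and 2 passed. On CPM as printed the passing groups can differ. Cdc6 stood apart in shNC 1, with 12.67 CPM against 10.3 to 10.7 CPM in the other shNC libraries. Dtl stood apart in shTbl1xr1 4, with 15.92 CPM against 5.39 to 6.25 CPM in shTbl1xr1 1 to 3 and 10.6 to 12.6 CPM in shNC.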

How the results depend on the processing

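Under every alternative except the shallow shTbl1xr1 pair alone, 0 members were called, and that pair called 5 higher and 11 lower. Of 1220 values of single genes under the alternatives, 1117 kept their sign and their side of the threshold, 70 turned sign and 33 newly passed, 32 of them in the shallow pair and the other Paics with DESeq2. Over all genes, edgeR's 6 higher and 1 lower became 248 and 47 with DESeq2, 3073 and 3017 in the shallow pair, 24 and 2 with the length trend removed, 12 higher without a filter on low counts, 3 higher with library size alone, and 0 lower with limma-voom and without the shallow pair. With library size alone the members' median was -0.44 and that of all tested genes -0.27. Leaving out each library in turn gave 0 to 28 higher and 0 to 6 lower calls over all genes, both highest without shTbl1xr1 4. It gave a members' median of -0.37 to -0.060 and a Tbl1xr1 difference of -2.83 to -2.01, with p = 0.0571 by exact permutation when any 1 shNC library was left out. The cause of these shifts was not tested, and the fits with 1 library left out also rest on fewer libraries. Counting error limits the low genes most, with 9 counts for Orc1, 14 for Clspn and 15 for Gins3 in their lowest library.

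Without the shallow pair these log2 fold changes turned sign: Mcm6 0.061, Gins2 -0.086, Gins4 -0.10, Pola1 0.050, Pole 0.37, Pcna -0.042, Rpa2 -0.19, Tyms -0.094, Chaf1a 0.19, Uhrf1 0.28, Clspn 0.021, Tipin -0.29, Rnaseh2a -0.033, Rnaseh2c -0.15, Dctpp1 -0.036, Asf1a -0.16, Plk1 -0.37 and Ube2c -0.34. In the shallow pair alone they were Prim1 0.0040, Rfc3 0.00040, Rfc4 0.0042, Donson -0.087 and E2f8 -0.16. With library size alone, where the median of all tested genes was -0.27, they were Gins2 -0.20, Gins4 -0.19, Pcna -0.22, Rpa2 -0.31, Rrm2 -0.20, Tyms -0.16, Chaf1b -0.058, E2f1 -0.20, Tipin -0.20, Gmnn -0.0063, Donson -0.10, Asf1a -0.23, Rb1 -0.059, Plk1 -0.20 and Ube2c -0.20. With the length trend removed they were Mcm6 0.039, Pole 0.10, Rpa2 -0.0013, Tyms -0.040, Tipin -0.12, Ube2c -0.11 and Mki67 0.019. Others were Rrm2 at -0.028 with counts thinned to the shallowest library, Rpa2 at -0.023 and Tipin at -0.00065 with limma-voom, and Rpa2 at -0.057 with upper quartile scaling. The ranges with 1 library left out that crossed 0 were -0.45 to 0.026 for Cdt1, -0.29 to 0.082 for Mcm6, -0.17 to 0.035 for Prim1, -0.46 to 0.12 for Pole, -0.0015 to 0.24 for Pcna, -0.15 to 0.15 for Rpa2, -0.091 to 0.21 for Rrm2, -0.69 to 0.015 for Chaf1a, -0.032 to 0.20 for E2f1, -0.012 to 0.38 for Tipin, -0.044 to 0.53 for Tonsl, -0.0073 to 0.20 for Asf1a, -0.18 to 0.65 for E2f8, -0.14 to 0.41 for Plk1 and -0.058 to 0.45 for Ube2c.

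With the replicate number as a block, edgeR called 4 higher and 1 lower over all genes and 0 members, with a members' median of -0.16. Same-numbered libraries correlated in their deviations from the group means at 0.38, -0.07, 0.30 and 0.12 for numbers 1 to 4, so the numbers were not taken to pair the libraries. shNC 1 correlated with shTbl1xr1 1 and 2 alike (0.38 each), so not every library went best with its own number.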

Other observations

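On the TPM scale more members looked lower. The mean TPM in shTbl1xr1 was below that in shNC for 34 of 36 members (94.4%), but also for 84.0% of all tested genes. Every shTbl1xr1 library was below every shNC library in TPM for 2 members, Gins3 and Rfc3 (5.56%), and for 5.72% of tested genes. Rfc3 had 17.0 ± 0.59 TPM in shNC and 13.1 ± 2.09 TPM in shTbl1xr1 (SD, n = 4 each), while its CPM groups overlapped.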
